A study of Rattus norvegicus with 12 samples.

Results

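The integrin and laminin subunit genes were compared between ovaries of Control rats, PCOS rats and PCOS rats given mogroside V (MV). The deposited table was read with 1 row per gene, and every gene named as an integrin alpha subunit, an integrin beta subunit or a laminin alpha, beta or gamma chain was taken, which gave 34 of 19730 genes. The 33 described here were 17 integrin alpha genes, 7 integrin beta genes and 9 laminin chain genes. Their level was given in FPKM, a fragment count scaled by transcript length and by library size, so levels could be compared between genes as well as between libraries.

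Whole ovaries came from wild type Sprague Dawley rats at post natal week 15, with 4 libraries in each of 3 groups. Rats of the Control group were untreated and ate standard food. Rats of the PCOS group were given letrozole, an aromatase inhibitor that blocks the conversion of androgens to estrogens, for 30 days together with a high-fat diet, and entered the group by their vaginal smears. Rats of the PCOS-MV group received the same induction and then MV, a triterpene glycoside of the monk fruit, for 30 days. The groups were separate rats sampled at the same age, so rises and falls below are differences between groups, not within a rat. Letrozole and the diet were given together, so their effects cannot be told apart, and the study's methods mention no vehicle gavage for the other groups during the MV period. In those methods, letrozole and the diet came before the 30 days of MV, and all rats were killed at the end. The PCOS ovaries were thus taken about 30 days after the last letrozole dose.

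Laminins are secreted as trimers of 1 alpha, 1 beta and 1 gamma chain and polymerise into the sheet on which a basement membrane is built. Integrins are receptors of 1 alpha and 1 beta subunit that span the cell membrane, and the alpha subunit largely sets whether a pair binds laminin, collagen or ligands with an Arg-Gly-Asp (RGD) motif such as fibronectin. In the ovary a basement membrane separates the granulosa cells of each follicle from the theca, and others surround blood vessels and cells of the corpus luteum.

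The promoters of some of the genes that lead the results below are shown first, because the members moved in opposite directions and a reader may want to compare their start regions. RefSeq windows of the GRCr8 assembly, from 250 bases before to 50 bases after the start, were matched by symbol for 25 of the 33 genes. Itga6 and Itgb3, which also lead the results, had no matched window. Capitals mark matches to the GC box (GGGCGG), the steroid receptor half-site (AGAACA) or the CArG box, on either strand. Lama2, Lamc3 and Itga9 were higher in PCOS, and Lama5 and Itga8 were lower. The windows lie at chr1:19491896-19492195 on the plus strand (Lama2), chr3:35562739-35563038 on the plus strand (Lamc3), chr8:127185039-127185338 on the plus strand (Itga9), chr3:187695925-187696224 on the minus strand (Lama5) and chr17:80410584-80410883 on the minus strand (Itga8).
Lama2: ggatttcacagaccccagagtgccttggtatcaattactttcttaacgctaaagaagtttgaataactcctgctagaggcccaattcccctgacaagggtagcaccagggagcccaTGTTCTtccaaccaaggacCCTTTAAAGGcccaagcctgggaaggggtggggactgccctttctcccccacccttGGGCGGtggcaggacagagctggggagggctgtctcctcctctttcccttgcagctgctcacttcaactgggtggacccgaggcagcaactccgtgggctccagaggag
Lamc3: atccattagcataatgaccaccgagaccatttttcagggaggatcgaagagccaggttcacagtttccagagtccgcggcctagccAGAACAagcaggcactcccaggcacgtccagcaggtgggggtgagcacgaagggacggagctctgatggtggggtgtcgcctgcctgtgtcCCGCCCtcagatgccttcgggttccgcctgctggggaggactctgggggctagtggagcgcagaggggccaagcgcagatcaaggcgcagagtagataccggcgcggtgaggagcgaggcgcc
Itga9: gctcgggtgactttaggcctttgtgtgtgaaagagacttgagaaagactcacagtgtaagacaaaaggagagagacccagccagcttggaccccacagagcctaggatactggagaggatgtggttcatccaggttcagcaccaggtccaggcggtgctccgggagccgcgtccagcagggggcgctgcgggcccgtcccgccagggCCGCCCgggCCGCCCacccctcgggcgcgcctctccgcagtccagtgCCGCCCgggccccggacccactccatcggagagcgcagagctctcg
Lama5: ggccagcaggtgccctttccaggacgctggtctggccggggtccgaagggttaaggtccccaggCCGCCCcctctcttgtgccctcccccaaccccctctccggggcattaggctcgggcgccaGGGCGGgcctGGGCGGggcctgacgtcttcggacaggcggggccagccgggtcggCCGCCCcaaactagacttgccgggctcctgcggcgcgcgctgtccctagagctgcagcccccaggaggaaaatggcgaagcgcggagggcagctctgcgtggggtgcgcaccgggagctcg
Itga8: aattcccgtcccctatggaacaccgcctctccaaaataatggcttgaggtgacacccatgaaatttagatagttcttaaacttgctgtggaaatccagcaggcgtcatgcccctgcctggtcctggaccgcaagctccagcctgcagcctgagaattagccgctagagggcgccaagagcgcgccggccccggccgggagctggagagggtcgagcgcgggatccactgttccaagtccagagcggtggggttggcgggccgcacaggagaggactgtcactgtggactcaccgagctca

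The GC box was found in 14 of the 25 windows (56%), against 33.1% of all 33469 promoter windows. Each member gave 1 window, whereas the set of all windows was not reduced to 1 per gene. Lama5 held 4 copies, Itga9 held 3, and Itga8 held none. The half-site AGAACA was in 5 windows (20%, against 20.7% of all), among them Lama2 and Lamc3. The CArG box, the element bound by serum response factor, was in 2 windows (8%, against 1.64%), those of Lama2 and Itgb6. The TATA box (TATAAA) was in 2 windows (8%, against 14.2%) and the AP-1 site (TGANTCA) in 1 (4%, against 7.33%). The site of the NR5A nuclear receptors (AAGGTCA) had no match in any of the 25 windows, against 4.61% of all windows. The median GC content was 58.7% over the members and 51.7% over all windows. These matches describe letters in a window and no binding was measured.

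The number of reads behind each value is unknown, since only FPKM were deposited. Summed FPKM ranged from 339830 to 373758 per library, and steps between low values placed the relative depth of the libraries between 0.915 and 1.12 times that of Control 1, with only 19.8% to 22.2% of low values on such steps where chance gives 10%. Correlations of log2(FPKM + 1) between libraries of a group were 0.954 to 0.989. Granulosa, theca and luteal markers were present in all groups, as their summed levels below show. The library Control 3 stood apart in 6 markers of oviduct and surface epithelium, whose summed level was 233 FPKM there and 19.5, 27.0 and 35.7 FPKM in the other Control libraries. Keratin and adhesion genes led that sum, with Epcam at 32.3 FPKM in Control 3 against 1.20 to 2.90 FPKM in the other Control libraries. It was also highest in 6 smooth muscle markers, with a sum of 978 FPKM against 345 to 509 FPKM in the other Control libraries. Several results that rest on Control 3 are given with and without it.

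**Figure D1:**
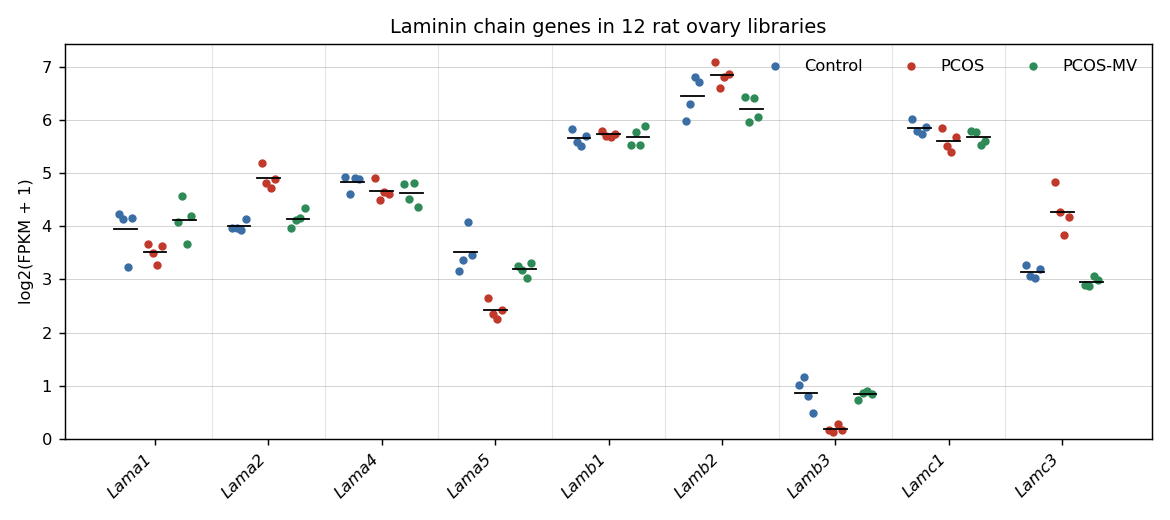
Level of 9 laminin chain genes as log2(FPKM + 1) in each of 12 libraries (points; Control, PCOS and PCOS-MV) with the group mean as a bar. Lama2 and Lamc3 sit highest in the 4 PCOS libraries, Lama5 sits lowest there, and Lamb1, Lamc1 and Lama4 overlap between the groups.

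Among the 33 genes the highest level was that of Itgb1, the beta subunit shared by most matrix-binding integrins, with 174 ± 6.77 FPKM in the Control group (SD, n = 4). Lamb2, Lamc1 and Lamb1, the common beta and gamma chains of laminin, came next at 88.9 ± 23.0, 56.97 ± 4.94 and 49.7 ± 5.01 FPKM. Lamc1 was above Lamb1 within each Control library, although their ranges over these libraries overlapped (52.1 to 63.6 and 44.5 to 56.1 FPKM). The lowest Control library of Lamb2 lay below the highest of Lamc1. The leading alpha subunits in the Control group were Itga6 (33.4 ± 0.867 FPKM) and Itgav (32.6 ± 3.86 FPKM), which did not differ beyond their spread. Of the 33 genes, 30 had a mean of at least 1 FPKM over the 12 libraries and were tested, and Itgb6, Lamb3 and Itga10 were below it.

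In the PCOS ovary, a few laminin and integrin genes rose and a larger number fell. The laminin chains Lama2 and Lamc3 and the integrin subunit Itga9 were higher than in the Control group, at 1.94, 2.43 and 2.32 times its mean FPKM. The laminin receptor subunits Itga6 and Itga3, the collagen receptor subunits Itga1 and Itga11, the RGD receptor subunits Itga8, Itga5 and Itgb3, the shared subunit Itgb1 and the laminin chain Lama5 were lower. By limma on log2(FPKM + 1), with p-values adjusted over 13430 genes, 12 of the 30 tested members were called (40%), 3 higher and 9 lower, against 27.4% of all genes called either way, 11.9% called higher and 15.6% called lower. At an unadjusted p under 0.05 there were 16 members (53.3%, against 39.4% of all genes). The 4 PCOS values lay above all 4 Control values for 3 members and below them for 10, which is 43.3% of the members against 31.0% of all genes (13.8% above and 17.2% below). The median log2 fold change was -0.23 over the 30 members and -0.03 over all genes tested. In bulk tissue, a lower share of the cells that express a gene and less RNA per cell cannot be told apart, which holds for every comparison here.

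Lama2, the alpha chain of laminins best known from muscle and peripheral nerve, was measured at 14.7, 14.7, 14.4 and 16.5 FPKM in Control 1 to 4, at 35.7, 27.3, 25.3 and 28.5 FPKM in PCOS 1 to 4, and at 14.6, 16.4, 16.9 and 19.2 FPKM in PCOS-MV 1 to 4. All PCOS libraries lay above all others. The difference between PCOS and Control was 0.90 on the log2 scale (SE 0.11, limma adjusted p = 0.000485, n = 4 per group), and the exact two-sided permutation test gave p = 0.0286, the smallest value that 4 against 4 libraries allow.

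Lamc3, a rarer gamma chain that can take the place of Lamc1, read 8.66, 7.41, 7.14 and 8.17 FPKM in Control 1 to 4 and 27.6, 18.3, 13.3 and 17.1 FPKM in PCOS 1 to 4. Here too the groups did not overlap, although the PCOS libraries spread over a wide range. Lamc3 differed by 1.14 on the log2 scale (SE 0.19, limma adjusted p = 0.00272). Lamc1 itself, the gamma chain of most laminins, was at 56.97 ± 4.94 FPKM in Control and 48.4 ± 6.88 FPKM in PCOS, a difference of -0.24 with a 95% interval of -0.49 to 0.01 that was not called (limma adjusted p = 0.148).

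Lama5, the alpha chain of many epithelial and vessel basement membranes, fell. Its level was 7.88, 9.29, 16.0 and 10.05 FPKM in Control 1 to 4 and 5.27, 4.11, 3.76 and 4.36 FPKM in PCOS 1 to 4, with every PCOS library below every Control library. This is -1.10 on the log2 scale (SE 0.19, limma adjusted p = 0.00342), and it was -0.91 (adjusted p = 0.00123) without Control 3, the library with the epithelial markers.

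The other laminin chains gave no call. Lama1, the alpha chain of early embryonic basement membranes, was at 17.8, 16.7, 8.40 and 16.9 FPKM in Control and at 11.7, 10.4, 8.71 and 11.3 FPKM in PCOS. Control 3 lay below all PCOS libraries while the other 3 Control libraries lay above them. Lama1 differed by -0.42 (limma adjusted p = 0.185), and -0.66 (adjusted p = 0.0026) without Control 3. Lama4, the alpha chain typical of capillaries, differed by -0.16 (95% interval -0.42 to 0.09), Lamb1 by 0.07 (-0.11 to 0.26) and Lamb2 by 0.39 (-0.04 to 0.82), none of them called.

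The make-up of the laminin classes shifted accordingly. Of the summed FPKM of the 4 alpha chain genes, Lama2 made up 22.0% ± 1.02 in Control, 42.5% ± 1.25 in PCOS and 25.6% ± 3.33 in PCOS-MV. Lama5 made up 15.8% ± 5.37, 6.37% ± 0.194 and 12.5% ± 1.13. The sum itself stayed close, at 68.4 ± 3.42, 68.7 ± 9.09 and 65.7 ± 2.53 FPKM. Lamc3 made up 12.1% ± 0.248 of the sum of Lamc1 and Lamc3 in Control, 27.8% ± 3.82 in PCOS and 11.99% ± 1.71 in PCOS-MV, with no overlap between PCOS and either other group. The ratio of Lama2 to Lama5 was 1.498 ± 0.419 in Control, 6.67 ± 0.0989 in PCOS and 2.06 ± 0.276 in PCOS-MV. These shares are of transcript levels and do not give the trimers that were assembled.

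**Figure D2:**
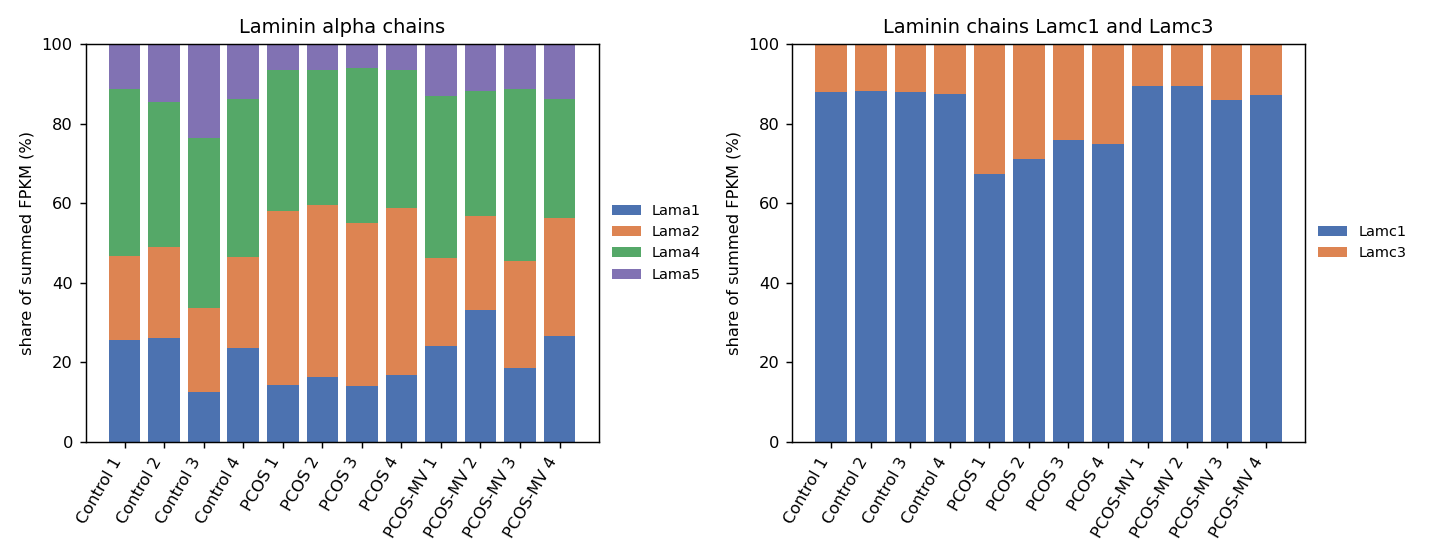
Share of each chain in the summed FPKM (%) of the laminin alpha genes (left) and of Lamc1 and Lamc3 (right), 1 stacked bar per library. In the 4 PCOS libraries Lama2 takes 40.8% to 43.6% of the alpha sum and Lamc3 takes 24.2% to 32.6% of the sum of Lamc1 and Lamc3, more than in any library of the other groups.

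Among the laminin-binding integrin subunits, Itga6, which pairs with Itgb1 or Itgb4, gave the clearest separation. Its level was 34.6, 32.5, 33.1 and 33.3 FPKM in Control, 15.3, 11.6, 13.6 and 12.2 FPKM in PCOS, and 28.3, 21.7, 29.8 and 21.3 FPKM in PCOS-MV. The 3 groups did not overlap, with PCOS lowest and PCOS-MV in between. The log2 fold change of PCOS against Control was -1.28 (SE 0.09, limma adjusted p = 3.07e-05).

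Itga3, another laminin receptor subunit that pairs with Itgb1, was at 5.53, 5.50, 11.3 and 6.83 FPKM in Control and at 3.20, 3.69, 2.34 and 2.98 FPKM in PCOS. Control 3 was the highest library, and the groups did not overlap with or without it. Itga3 differed by -0.99 (SE 0.21, limma adjusted p = 0.00864), and -0.78 (adjusted p = 0.00388) without Control 3. Itga7, the laminin receptor subunit of muscle, was low and not called, with -0.32 (95% interval -0.92 to 0.28) and -0.05 without Control 3. Summed over Itga3, Itga6 and Itga7, the level was 43.3 ± 4.22 FPKM in Control, 18.0 ± 1.83 FPKM in PCOS and 32.3 ± 3.98 FPKM in PCOS-MV.

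The collagen receptor subunits Itga1 and Itga11, both partners of Itgb1, fell in PCOS. Itga1 was at 23.2, 22.9, 18.4 and 20.9 FPKM in Control and at 14.6, 12.03, 13.5 and 15.0 FPKM in PCOS, which is -0.59 on the log2 scale (SE 0.10, limma adjusted p = 0.00269). Itga11, known from fibroblasts, was at 5.70, 5.89, 5.78 and 4.77 FPKM in Control and at 2.95, 2.19, 2.59 and 2.88 FPKM in PCOS, which is -0.84 (SE 0.10, adjusted p = 0.000545). Neither gene overlapped between the groups. Itga2, the collagen receptor subunit of platelets and epithelia, was not called, at 0.24 (95% interval -0.13 to 0.60). Itga1 shares 1888 bases of its locus with Pelo on the same strand, so that reads there could belong to either gene.

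Among the RGD receptor subunits, Itga8 gave the largest log2 fold change of the 30 tested members. Itga8, which binds nephronectin and is known from mesenchymal and smooth muscle cells, was at 15.6, 30.6, 17.9 and 17.6 FPKM in Control and at 6.30, 3.79, 4.61 and 6.71 FPKM in PCOS. Control 2 was far above the other Control libraries, yet all Control libraries exceeded all PCOS libraries. Its difference was -1.73 (SE 0.23, limma adjusted p = 0.000791), and -1.53 (adjusted p = 0.000992) without Control 2. By limma, 0 of the 6 smooth muscle markers were called and 0 had an unadjusted p under 0.05, with summed levels of 345 to 978 FPKM in Control and 473 to 605 FPKM in PCOS. The 978 FPKM was that of Control 3, and without this library 0 were called and 1 was higher at an unadjusted p under 0.05.

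Itga5, the main fibronectin receptor subunit, was at 15.1, 15.3, 14.5 and 14.6 FPKM in Control and at 11.7, 9.26, 8.25 and 11.2 FPKM in PCOS (-0.52, SE 0.11, limma adjusted p = 0.00749). Itgb3, which pairs with Itgav and Itga2b, was at 13.7, 14.5, 13.6 and 15.4 FPKM in Control and at 8.16, 6.86, 7.34 and 8.01 FPKM in PCOS (-0.84, SE 0.08, adjusted p = 0.000126). Both genes were lower in every PCOS library than in any Control library. Itgav, the alpha subunit that serves several beta subunits, was not called (-0.22, 95% interval -0.43 to -0.02, adjusted p = 0.0977). Itga2b, the platelet subunit, differed by 0.02 (-0.41 to 0.44). Of the 5 platelet markers, Pf4 at 8.79 to 18.6 FPKM was the only one that passed the filter, and Ppbp, Gp9, Gp1bb and Gp5 had group means under 0.4 FPKM.

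Itga9, a partner of Itgb1 that binds tenascin C and VCAM1, moved the other way. It was at 14.5, 19.4, 20.4 and 17.2 FPKM in Control, at 45.1, 36.6, 44.4 and 39.8 FPKM in PCOS, and at 25.5, 25.1, 23.3 and 27.0 FPKM in PCOS-MV. The 3 groups were apart from one another, with PCOS highest. The log2 fold change of PCOS against Control was 1.17 (SE 0.12, limma adjusted p = 0.000181). Itga9 made up 9.83% ± 0.9754 of the summed FPKM of the alpha subunit genes in Control and 29.0% ± 1.77 in PCOS, where it was the leading alpha subunit. Itga4, its closest relative, which binds VCAM1 and fibronectin, was lower in every PCOS library, but was not called (-0.27, 95% interval -0.49 to -0.05, limma adjusted p = 0.0654).

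**Figure D3:**
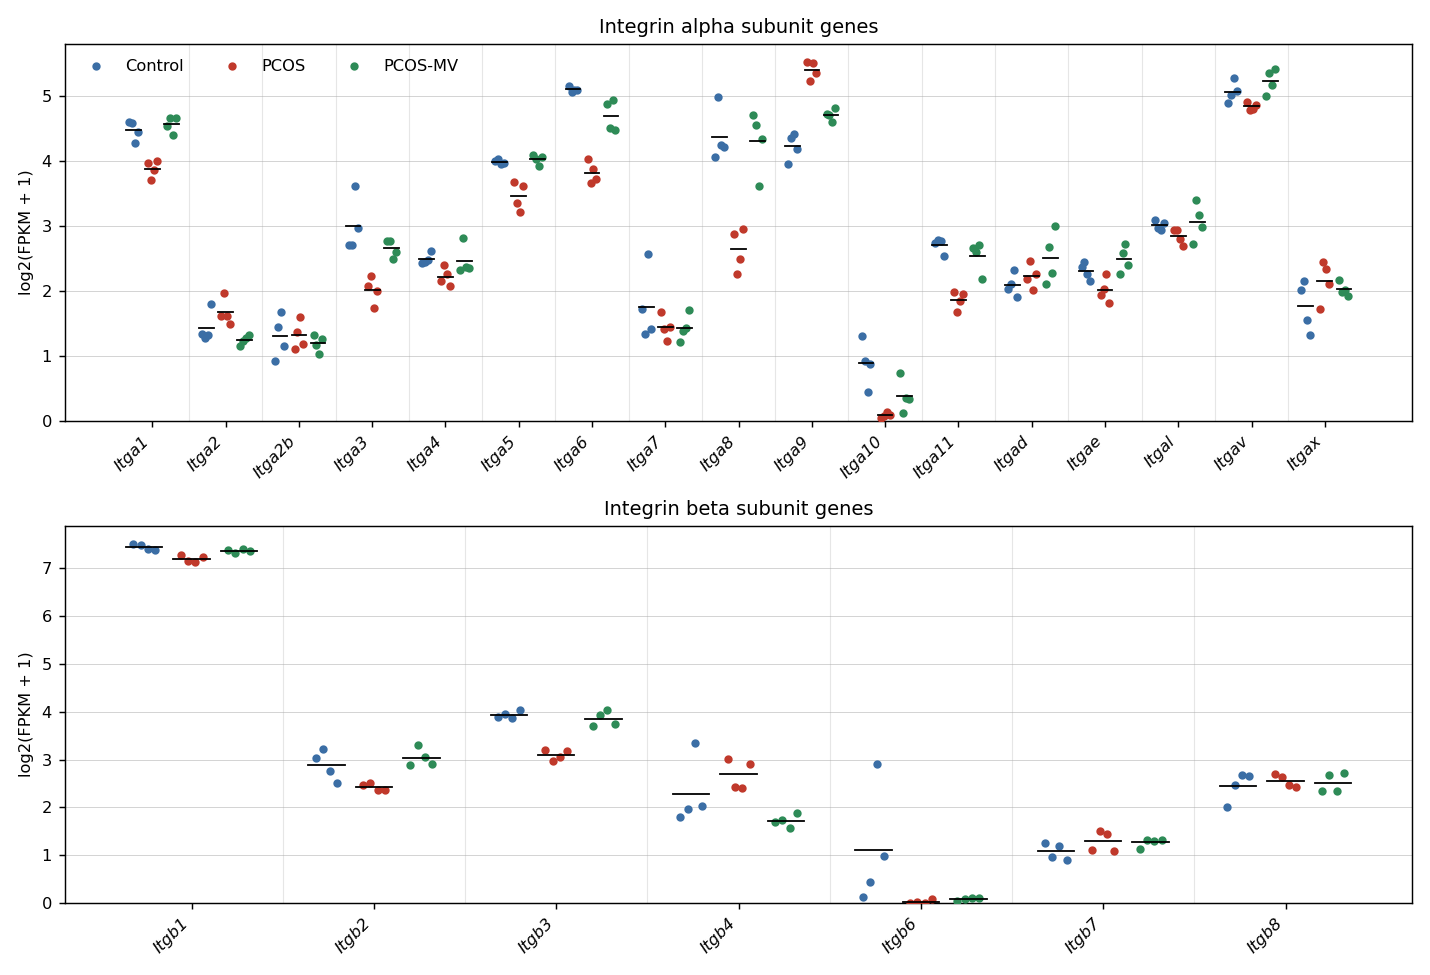
Level of the 17 integrin alpha genes (top) and 7 integrin beta genes (bottom) as log2(FPKM + 1) in each library (points) with the group mean as a bar. Itga9 is highest in the 4 PCOS libraries, and Itga6, Itga8, Itga1, Itga5, Itga11 and Itgb3 are lowest there, while Itgb1 tops the beta subunits in every library.

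Itgb1 was slightly lower in PCOS. It was at 181, 178, 169 and 167 FPKM in Control and at 154, 141, 140 and 149 FPKM in PCOS, with no overlap. The difference was -0.25 (SE 0.07, limma adjusted p = 0.0256). This call was lost in 4 of the 8 fits that left out 1 library, those without Control 2, PCOS 2, PCOS 3 or PCOS 4, with an adjusted p of up to 0.0819. The 12 alpha subunits that pair with Itgb1 summed to 0.941 ± 0.0698 times its level in Control, 0.856 ± 0.0332 times in PCOS and 0.991 ± 0.0669 times in PCOS-MV.

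Itgb4, which pairs only with Itga6 and anchors epithelia in hemidesmosomes, was at 2.499, 2.90, 9.13 and 3.06 FPKM in Control and at 7.08, 4.39, 4.33 and 6.56 FPKM in PCOS. Control 3, the library with the epithelial markers, lay above all PCOS libraries and the other Control libraries below them. With all libraries the difference was 0.41 (limma adjusted p = 0.391), and without Control 3 it was 0.76 (adjusted p = 0.0129). Itgb8, a partner of Itgav, differed by 0.10 (95% interval -0.25 to 0.45).

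Of the 6 genes of leukocyte integrins, limma called 0 between PCOS and Control, and 2 had an unadjusted p under 0.05, Itgb2 and Itgae. Itgb2, the common beta subunit of leukocytes, was at 7.25, 8.30, 5.78 and 4.67 FPKM in Control and at 4.55, 4.74, 4.15 and 4.16 FPKM in PCOS (-0.45, 95% interval -0.79 to -0.11, limma adjusted p = 0.0542), and without Control 4 it was called (-0.58, adjusted p = 0.0136). Its partners Itgal (-0.17), Itgad (0.14) and Itgax (0.39), and Itgae (-0.30) and Itgb7 (0.21) of mucosal lymphocytes, had intervals of the difference from -0.57 at the lowest to 0.89 at the highest. Among 9 leukocyte markers, 3 were called higher and 0 lower (limma; 11.9% and 15.6% of all genes), 4 and 0 at an unadjusted p under 0.05, and their summed level was 191 to 267 FPKM in Control and 244 to 287 FPKM in PCOS. Lyz2, which was not called, made up most of that sum, with means of 160.9 FPKM in Control and 187.5 FPKM in PCOS. Itgad and Itgax overlap over 21211 bases on the same strand and Itgae overlaps 5 other genes, so the values of these integrins may hold reads of a neighbour.

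The 3 genes below 1 FPKM had their highest values in the Control group. Lamb3, a beta chain of epithelial basement membranes, ranged from 0.39 to 1.25 FPKM in Control and from 0.0926 to 0.21 FPKM in PCOS. Itga10, a collagen receptor subunit of cartilage, ranged from 0.359 to 1.46 FPKM in Control and from 0.0278 to 0.0942 FPKM in PCOS. Itgb6, an epithelial partner of Itgav, reached 6.49 FPKM in Control 3, against 0.0876 to 0.988 FPKM in the other Control libraries, and was listed at 0 in PCOS 3. In PCOS-MV, Lamb3 ranged from 0.664 to 0.86 FPKM, above all PCOS libraries. Itga10 ranged from 0.0827 to 0.673 FPKM there, and Itgb6 from 0.0254 to 0.0724 FPKM, below all Control libraries.

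**Figure D4:**
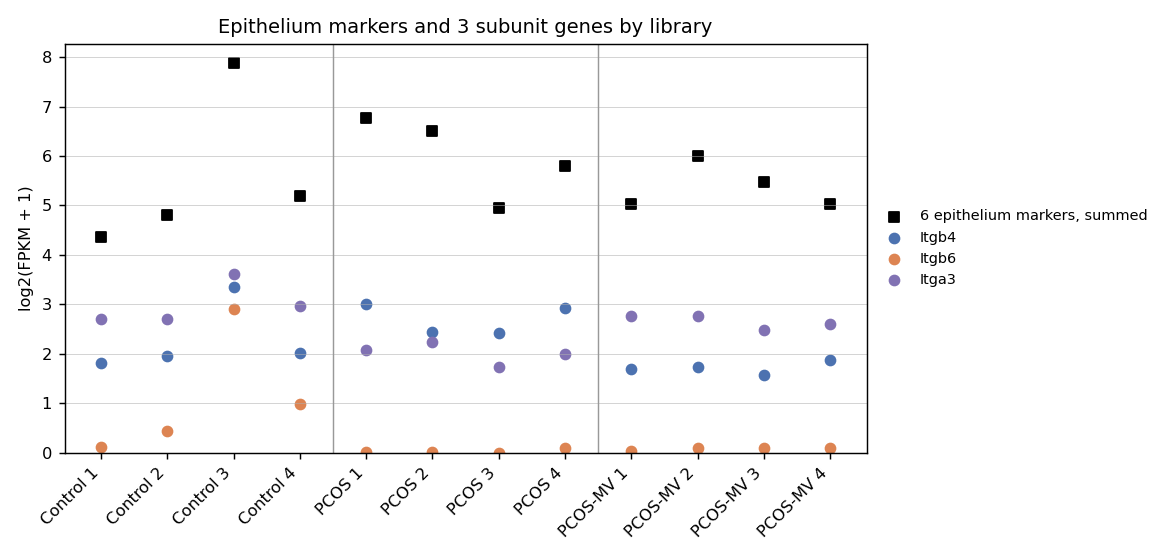
Summed level of 6 epithelium markers (squares) and levels of Itgb4, Itgb6 and Itga3 (circles) as log2(FPKM + 1) in each of the 12 libraries. All 4 are highest in Control 3; the sum of 108 FPKM in PCOS 1 is mostly that of Cdh1, at 88.4 FPKM.

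Marker lists of several cell types moved with these genes between PCOS and Control, counted as calls by limma, of which there were 11.9% higher and 15.6% lower among all genes. Endothelium markers were lower for 5 of 6 genes, with a summed level of 103 to 126 FPKM in Control and 59.5 to 70.0 FPKM in PCOS. Luteal markers were lower for 4 and higher for 1 of 6 genes, with sums of 5493 to 6400 FPKM and 1458 to 2652 FPKM. Theca and interstitial markers were higher for 4 and lower for 1 of 5 genes (4 and 0 without Control 3), with sums of 127 to 168 FPKM and 1715 to 3208 FPKM. Cyp17a1 (5.12 on the log2 scale) and Insl3 (7.43) moved most. Nr2f2 (0.67), Tcf21 (0.49) and Ptch1 (-0.43) moved far less. Granulosa markers were split, with 3 of 8 genes called higher (Cyp19a1, Fshr and Inha) and 0 called lower, 3 and 3 at an unadjusted p under 0.05, and a median log2 fold change of -0.00011. Amh (-0.81), Nr5a2 (-0.77) and Inhbb (-0.60) were the 3 on the lower side, and Nr5a2 was called without Control 3 (-1.10, adjusted p = 0.00206). Their sums of 628 to 877 FPKM in Control and 919 to 1340 FPKM in PCOS were mostly those of Inha, with means of 489.7 and 807 FPKM. Both tested adipocyte markers were lower, with sums over the 4 measured of 5.27 to 36.1 FPKM and 0.691 to 3.85 FPKM. Of 4 tested oocyte markers 0 were called, and 0 had an unadjusted p under 0.05, with sums over the 5 measured of 13.6 to 23.3 FPKM and 12.4 to 14.2 FPKM. Without Control 3, Gdf9 among them was called lower (-0.41, adjusted p = 0.0491). Among 6 epithelium markers 1 was called, Cdh1, which was higher with and without Control 3. The list median was -0.88 with all libraries and -0.18 without Control 3. The part of these cell types in the integrin and laminin values was not tested.

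The question of whether MV changed these genes in the PCOS ovary was addressed by PCOS-MV against PCOS, and the PCOS libraries enter this comparison and the one above. In PCOS-MV, Lama2, Lamc3, Itga9, Itgb4, Lamb2 and Itga2 were lower than in PCOS. The laminin receptor subunits Itga6 and Itga3, the collagen receptor subunits Itga1 and Itga11, the RGD receptor subunits Itga8, Itga5, Itgav and Itgb3, the leukocyte subunits Itgb2 and Itgae, and the chains Lama5 and Lama1 were higher. By limma, 18 of the 30 members were called (60%), 12 higher and 6 lower, against 25.7% of all genes called either way, 14.3% called higher and 11.4% called lower. There were 19 members at an unadjusted p under 0.05 (63.3%, against 38.5% of all genes). The PCOS-MV values lay above all PCOS values for 11 members and below them for 6, which is 56.7% of the members against 30.0% of all genes (16.7% above and 13.3% below). The median log2 fold change was 0.20 over the members and 0.03 over all genes tested.

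**Figure D5:**
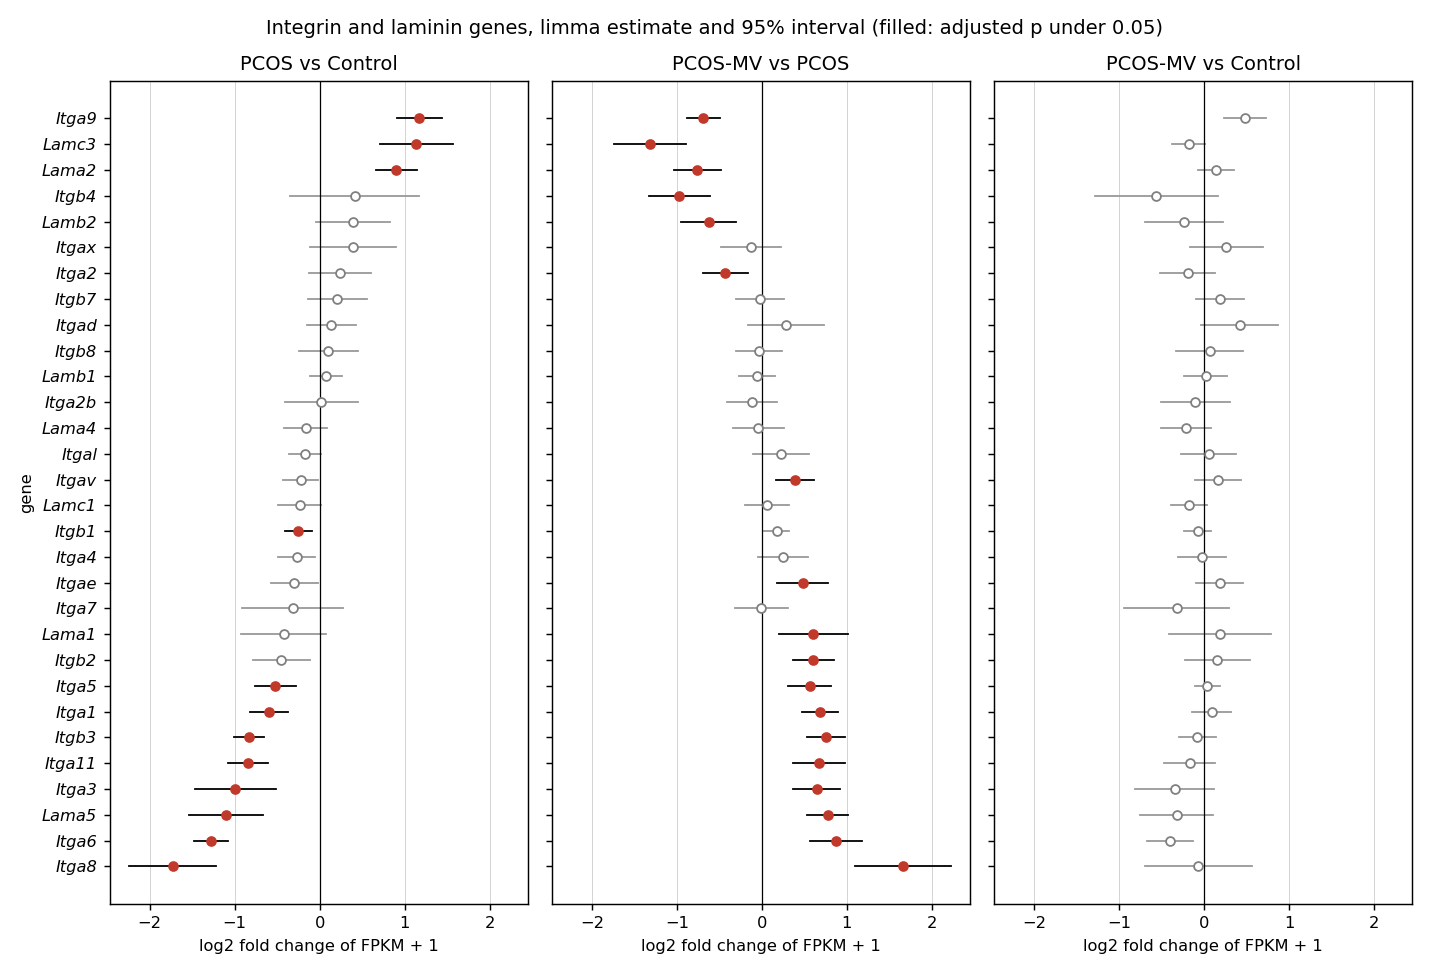
Log2 fold change of FPKM + 1 with its 95% interval for the 30 tested genes in the 3 comparisons (columns); filled points have a limma adjusted p under 0.05. Filled points number 12 in PCOS vs Control, 18 in PCOS-MV vs PCOS and 0 in PCOS-MV vs Control, and the first 2 columns share the PCOS libraries.

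Among the laminin chains, Lamc3 fell from 27.6, 18.3, 13.3 and 17.1 FPKM in the PCOS libraries to 6.43, 6.38, 7.39 and 6.95 FPKM in the PCOS-MV libraries. The PCOS-MV libraries lay within a narrow range and all below PCOS. The log2 fold change was -1.32 (SE 0.19, limma adjusted p = 0.00169). For Lama2 it was -0.76 (SE 0.12, adjusted p = 0.00282), from the values given above, again without overlap.

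Lamb2, the beta chain of vessel wall, glomerulus and nerve terminal, was at 135, 95.8, 111 and 116 FPKM in PCOS and at 85.3, 61.3, 84.2 and 65.9 FPKM in PCOS-MV. All PCOS-MV libraries were lower (-0.62, SE 0.14, limma adjusted p = 0.0139). Its Control values, 62.0, 77.9, 111 and 105 FPKM, overlapped both groups. Lama5 rose from 5.27, 4.11, 3.76 and 4.36 FPKM to 8.54, 8.11, 7.14 and 8.95 FPKM (0.78, SE 0.11, adjusted p = 0.00147), with no overlap.

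Lama1 was at 15.8, 22.8, 11.7 and 17.2 FPKM in PCOS-MV against 11.7, 10.4, 8.71 and 11.3 FPKM in PCOS, and the groups touched. It was called (0.61, SE 0.18, limma adjusted p = 0.0389), but the call held in only 1 of 8 fits that left out a library, that without PCOS-MV 3, and the adjusted p reached 0.0993. It was also lost with no filter on low values (adjusted p = 0.0676) and in 1 model over the 12 libraries (adjusted p = 0.0772). Lamc1 (0.06, 95% interval -0.20 to 0.32), Lamb1 (-0.05, -0.27 to 0.16) and Lama4 (-0.05, -0.35 to 0.25) were not called.

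The laminin-binding subunit Itga6 was higher in all PCOS-MV than in all PCOS libraries (0.88, SE 0.13, limma adjusted p = 0.00238). Itga3 was at 5.78, 5.82, 4.61 and 5.05 FPKM in PCOS-MV against 2.34 to 3.69 FPKM in PCOS (0.65, SE 0.12, adjusted p = 0.00607). Itgb4 fell to 2.23, 2.32, 1.98 and 2.69 FPKM, below all PCOS libraries (-0.97, SE 0.16, adjusted p = 0.00304). Thus the partners Itga6 and Itgb4 were called in opposite directions. Itgb4 shares 776 bases with Galk1 on the opposite strand, and no use of strand in counting is stated.

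Among the collagen receptor subunits, Itga1 rose to 22.3, 24.4, 19.999 and 24.4 FPKM (0.68, SE 0.09, limma adjusted p = 0.00152) and Itga11 to 5.32, 5.09, 5.50 and 3.55 FPKM (0.67, SE 0.13, adjusted p = 0.00765). Neither overlapped with PCOS. Itga2 was at 2.05, 2.93, 2.06 and 1.80 FPKM in PCOS and at 1.22, 1.34, 1.41 and 1.49 FPKM in PCOS-MV (-0.43, SE 0.12, adjusted p = 0.0276). Its call held in 4 of 8 fits that left out a library and was lost without PCOS 2, PCOS 3, PCOS-MV 1 or PCOS-MV 2 (adjusted p up to 0.0622).

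Among the RGD receptor subunits, Itga8 was at 25.0, 22.4, 11.3 and 19.3 FPKM in PCOS-MV against 3.79 to 6.71 FPKM in PCOS. The PCOS-MV libraries were spread widely but all lay above PCOS (1.66, SE 0.25, limma adjusted p = 0.00213). Itgb3 rose to 12.1, 14.3, 15.5 and 12.4 FPKM (0.76, SE 0.10, adjusted p = 0.00108) and Itga5 to 16.1, 15.3, 14.2 and 15.7 FPKM (0.56, SE 0.11, adjusted p = 0.00764). Itgav was at 31.0, 39.8, 34.9 and 41.5 FPKM against 29.2, 26.6, 26.7 and 28.2 FPKM in PCOS (0.39, SE 0.10, adjusted p = 0.0192), and this call was lost without PCOS 2, PCOS 3 or PCOS-MV 2 (adjusted p up to 0.0574). Itga2b was not called (-0.12, 95% interval -0.41 to 0.17).

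Itga9 fell from 36.6 to 45.1 FPKM in PCOS to 23.3 to 27.0 FPKM in PCOS-MV (-0.69, SE 0.09, limma adjusted p = 0.000892). Itgb1 was at 167, 160, 168 and 163 FPKM in PCOS-MV, above every PCOS library, but was not called (0.17, 95% interval 0.02 to 0.32, adjusted p = 0.0883). Itga4 (0.25, -0.05 to 0.54) and Itgb8 (-0.04, -0.31 to 0.23) were not called either.

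Of the leukocyte integrins, Itgb2 was at 6.40, 8.82, 7.28 and 6.53 FPKM in PCOS-MV, above the 4.15 to 4.74 FPKM of PCOS (0.60, SE 0.10, limma adjusted p = 0.00428). Itgae was at 3.77, 5.01, 5.57 and 4.299 FPKM against 2.83, 3.10, 3.81 and 2.51 FPKM and overlapped at one library of each group (0.48, SE 0.13, adjusted p = 0.0309). Its call was lost without PCOS 1, PCOS 2, PCOS 4, PCOS-MV 2 or PCOS-MV 3 (adjusted p up to 0.0833), and with no filter on low values (adjusted p = 0.0536). Itgal (0.22), Itgad (0.28), Itgax (-0.13) and Itgb7 (-0.02) were not called. Among 9 leukocyte markers limma called 1 higher and 2 lower, against 14.3% and 11.4% of all genes. At an unadjusted p under 0.05 there were 1 and 4, and the median log2 fold change was -0.40. Their sum was 218 to 338 FPKM in PCOS-MV, mostly that of Lyz2, with a mean of 199 FPKM.

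The marker lists also moved between PCOS-MV and PCOS, where limma called 14.3% of all genes higher and 11.4% lower. Endothelium markers were higher for 3 of 6 genes, with a sum of 84.0 to 118 FPKM in PCOS-MV. Luteal markers were higher for 3 and lower for 1 of 6 genes (3825 to 9284 FPKM), theca and interstitial markers were lower for 3 of 5 (126 to 211 FPKM), and granulosa markers were lower for 3 of 8 (1 higher and 4 lower at an unadjusted p under 0.05; 615 to 948 FPKM). By limma, 0 smooth muscle, adipocyte and oocyte markers were called, and 0, 0 and 2 of them had an unadjusted p under 0.05. Of 6 epithelium markers limma called 2 lower, Epcam and Cdh1, and 0 higher, while the list median was 0.64 on the log2 scale. The sum was 31.8 to 63.3 FPKM in PCOS-MV. Adipocyte markers summed to 1.09 to 2.03 FPKM in PCOS-MV and 5.27 to 36.1 FPKM in Control. In PCOS-MV against Control, limma called 0 markers of any list. At an unadjusted p under 0.05 (8.5% of all genes), 2 adipocyte and 2 endothelium markers were lower and 1 theca and interstitial marker was higher. How far these lists bear on the integrin and laminin values was not tested.

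Between PCOS-MV and Control, 0 of the 30 members were called by limma, against 0.00745% of all genes, which is 1 of 13430. At an unadjusted p under 0.05 there were 2 members, Itga9 and Itga6, which is 6.67% of the members against 8.5% of all genes. Itga9 was still higher than Control in every PCOS-MV library (0.48, 95% interval 0.23 to 0.73, limma adjusted p = 0.457), and Itga6 was lower in every one (-0.40, -0.67 to -0.14, adjusted p = 0.497). These were the tested members whose values did not overlap, 1 above and 1 below, against 5.1% of all genes (2.81% above and 2.29% below).

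For the other members the intervals say how large a remaining difference could be. The 5 narrowest were those of Itga5 (-0.11 to 0.19), Itgb1 (-0.23 to 0.08), Lamc3 (-0.38 to 0.01), Lama2 (-0.07 to 0.36) and Lamc1 (-0.39 to 0.04). The 5 widest were those of Itgb4 (-1.28 to 0.16), Itga8 (-0.70 to 0.56), Itga7 (-0.94 to 0.29), Lama1 (-0.42 to 0.78) and Itga3 (-0.81 to 0.12). A miss of the threshold does not show that these genes were at the Control level. For Itgb4, Itga7, Lama1 and Itga3, Control 3 was the extreme Control library. Without Control 3 their differences were -0.21, -0.05, -0.05 and -0.14, against -0.56, -0.32, 0.18 and -0.34 with all libraries.

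Partner genes from fixed lists gave the surroundings of these receptors. Of 15 tested basement membrane partners of laminin, 4 were higher and 6 lower in PCOS than in Control by limma (11.9% and 15.6% of all genes), with a median of -0.45 against -0.03 over all genes. Without Control 3, Col15a1 lost its call, which left 4 higher and 5 lower. The type IV collagen genes were split. Col4a4, Col4a6 and Col4a5 were higher, by 2.06, 1.40 and 1.18 on the log2 scale, and Col4a1, of the main vascular network, was lower at -1.08. Col4a2 (-0.94) and Npnt (-0.96, limma adjusted p = 0.00952), the gene of the Itga8 ligand nephronectin, were lower as well. In PCOS-MV against PCOS, 4 of the 15 were higher and 5 lower (median 0.30), against 14.3% and 11.4% of all genes. Col4a4 was at -2.23, Col4a6 at -1.27, Col4a3 at -1.26 and Col4a5 at -1.18. Col4a1 (0.95, limma adjusted p = 0.000139), Col4a2 (0.93, adjusted p = 0.000117) and Agrn (0.82), the gene of agrin, went the other way and were higher. Npnt was not called in this comparison (0.23, limma adjusted p = 0.592). Col4a2, Npnt and Agrn, and here Col4a1, lie outside the 4 largest changes and were chosen after their values were seen.

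Of 7 genes listed as laminin receptors other than integrins, limma called 4 lower and 0 higher in PCOS, against 15.6% and 11.9% of all genes. At an unadjusted p under 0.05 there were 4 lower and 1 higher, and the median was -1.003. The list holds Cd151, which is not itself a laminin receptor and was not called. Its values spread widely, from 0.558 to 59.7 FPKM in Control and from 1.65 to 39.7 FPKM in PCOS. Sdc1, a heparan sulfate proteoglycan of the cell surface, was at 98.6 to 178 FPKM in Control and at 10.99 to 13.9 FPKM in PCOS (limma adjusted p = 1.68e-05). Its relatives Sdc4 (-1.11) and Sdc3 (-1.05) and the dystroglycan gene Dag1 (-1.003) fell as well. In PCOS-MV against PCOS the values were 2.59 for Sdc1, 1.26 for Sdc4, 1.21 for Sdc3 and 0.99 for Dag1, which made 4 higher and 0 lower (14.3% and 11.4% of all genes; 6 and 1 at an unadjusted p under 0.05; median 1.21).

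Of 17 tested integrin ligands other than laminin, 3 were higher and 8 lower in PCOS (limma; 11.9% and 15.6% of all genes; median -0.55, and -0.29 without Control 3). Vcam1 and Tnc, the genes of the ligands named above for Itga9, went apart. Vcam1, a cell adhesion molecule of activated endothelium and stroma, was at 5.91 to 7.38 FPKM in Control, 38.3 to 61.4 FPKM in PCOS and 8.35 to 11.1 FPKM in PCOS-MV. Tnc, the gene of tenascin C, was at 7.37 to 16.7 FPKM in Control, 0.658 to 1.19 FPKM in PCOS, and 7.81, 67.2, 5.92 and 135 FPKM in PCOS-MV 1 to 4. Tnc was thus above PCOS in every PCOS-MV library, with 2 of them far above the others. Cdh1, the gene of E-cadherin, which Itgae binds, was at 37.9 FPKM in Control 3 and 3.55 to 5.50 FPKM in the other Control libraries, against 88.4, 53.1, 23.3 and 33.4 FPKM in PCOS. Control 3 thus lay above PCOS 3 and PCOS 4. Cdh1 differed by 2.36 in PCOS against Control (limma adjusted p = 0.0359), by 3.08 without Control 3 (SE 0.40, adjusted p = 0.00109), and by -2.60 in PCOS-MV against PCOS. Mfge8, which carries an RGD motif, differed by -1.88 and 1.98. In PCOS-MV against PCOS, 5 ligands were higher and 2 lower (14.3% and 11.4% of all genes; median -0.04).

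Of 27 integrin adaptors and focal adhesion proteins, 3 were higher and 8 lower in PCOS than in Control (limma; 11.9% and 15.6% of all genes; median -0.24). At an unadjusted p under 0.05 there were 5 and 14, and without Control 3 there were 3 and 9 called. In PCOS-MV against PCOS 12 were higher and 3 lower (14.3% and 11.4% of all genes; 15 and 4 at an unadjusted p under 0.05; median 0.30). Ptk2b, a kinase of the focal adhesion kinase family, differed by -2.12 and 2.36. Actn4, an actin crosslinker, differed by -1.31 and 1.33. Fermt1, the kindlin of epithelia that activates integrins, went the other way with 1.17 and -1.45. Tns3, a tensin that binds the tail of beta subunits, differed by -1.55 and, not called, by 1.10 (limma adjusted p = 0.0516), and Lims1, of the complex of integrin-linked kinase, by 0.86 in PCOS-MV against PCOS. In PCOS-MV against Control, limma called 0 genes in each of these 4 lists. At an unadjusted p under 0.05 there were 3 adaptors higher and 1 lower, 1 basement membrane gene higher and 2 lower, 0 other laminin receptors higher and 1 lower, and 1 ligand higher and 5 lower.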

How the data were processed

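Ovarian RNA was sequenced in 1 library per rat, 4 rats per group, and groups and replicates were read from the titles. The authors deposited FPKM per gene. The study's methods name HISAT2 and featureCounts, whereas the submitters' processing notes name STAR 2.5.1b and HTSeq 0.6.0, and the genome build is not given in the sources used here. The authors' fold changes and p-values in the same table were not used. Values were repeated on 26928 transcript lines and 1 line per gene was kept, since 0 genes had differing lines. Columns headed MG were taken as PCOS-MV.

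The 13430 genes that averaged 1 FPKM or more over all libraries were compared as log2(FPKM + 1), a scale that understates changes of low genes, with limma 3.58.1 in R 4.3.3 (trend, 2 groups at a time, no covariate). Benjamini-Hochberg adjusted p-values under 0.05 were called. The limma script was tested on simulated data. Tables and plots were made with Python 3.11.15, pandas 2.3.3 and matplotlib 3.10.9. Of the members, 1 is not reported here. All tested members could be named, and up to 4 called genes with the largest fold change per partner list. The members and lists were chosen with earlier results of these data known. Gene positions in GRCr8 apply to the promoters only. The luteal marker Akr1c18 was matched to the file's Akr1c3 through a RefSeq synonym. Alternatives covered the pseudocount, the filter, 1 model over all libraries, the replicate block, rescaling, the variance trend and each library left out.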

Additional observations from a re-analysis of the deposited data

Results flagged for a closer look

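Single libraries stood far from the other 3 of their group in 9 of the 99 groups of 4 values examined, by Dixon's test at the 95% level. Chance flags about 1 in 20 groups, which is 4.95 here. Of the 9, 3 were in Control 3, the library with high epithelium markers. There Itgb4 reached 9.133 FPKM against 2.499 to 3.06 FPKM and Itgb6 reached 6.489 FPKM against 0.0876 to 0.988 FPKM in the other Control libraries. Lama1 was lowest in Control 3, at 8.404 FPKM against 16.7 to 17.8 FPKM. The part of the epithelium markers in these values was not tested.

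The other flags fell on several libraries. In Control 2, Itga8 was highest at 30.63 FPKM and Lama4 lowest at 23.34 FPKM. In Control 4, Itga2 was highest at 2.483 FPKM. In PCOS-MV 2, Itga4 was highest at 6.018 FPKM against 4.00 to 4.17 FPKM in the rest of its group. In PCOS-MV 1, Itgb7 was lowest at 1.205 FPKM and Itgb6 lowest at 0.02542 FPKM, a level at which few fragments can be expected.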

How the results depend on the processing

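The counts of called members moved little. Over all alternatives, PCOS vs Control gave 3 to 4 higher and 8 to 11 lower members, PCOS-MV vs PCOS gave 9 to 12 higher and 4 to 6 lower, and PCOS-MV vs Control gave 0 in both directions. Of the single log2 fold changes, 421, 404 and 425 alternative values kept their direction and their side of the threshold in these 3 comparisons, 5, 23 and 0 lost a call, 8, 0 and 0 gained one, and 5, 12 and 14 changed sign. All sign changes came from leaving out 1 library and concerned members that were not called. In PCOS vs Control, leave-one-out values ran from -0.045 to 0.18 for Itgb8 and from -0.11 to 0.14 for Itga2b. In PCOS-MV vs PCOS they ran from -0.0099 to 0.14 for Lamc1, from -0.11 to 0.043 for Lama4, from -0.10 to 0.023 for Itgb8, from -0.097 to 0.072 for Itga7 and from -0.093 to 0.052 for Itgb7. In PCOS-MV vs Control they ran from -0.050 to 0.077 for Lamb1, from -0.20 to 0.16 for Itga8, from -0.055 to 0.33 for Lama1, from -0.059 to 0.17 for Itgal, from -0.082 to 0.14 for Itgb8, from -0.14 to 0.025 for Itga4 and from -0.23 to 0.025 for Itga2b. Apart from the losses given in the report, Itgav (without Control 1), Itga4 (without PCOS 2) and Itgae (without PCOS 3) were called lower in PCOS vs Control in 1 fit each, and Itgb2 also in 1 model over the 12 libraries (adjusted p = 0.0383). Deviations of same-numbered libraries correlated at -0.0534 to 0.216, and in PCOS-MV vs PCOS at 0.101, 0.172, 0.136 and 0.0353, so numbers 1 to 3 deviated together there. Since not every pair passed 0.1 and the labels name nothing shared, the numbers were not taken as a pairing. With the replicate number as a block, PCOS vs Control gave 3 higher and 9 lower members and PCOS-MV vs PCOS gave 12 and 5. The block left Itgb1 at an adjusted p of 0.0649, Itgb2 at 0.0493 and Itga2 at 0.0571, and PCOS-MV 1 to 3, but not 4, correlated best with the PCOS library of its own number. List counts without Control 3 were added after seeing the data and stand in the report. Rescaling the libraries changed no call, and moved the share of higher calls among all genes from 43.3% to 48.5% in PCOS vs Control and from 55.6% to 50.9% in PCOS-MV vs PCOS. The cause of these changes was not tested. Depth is unknown, so no counting error could be given, and 4 libraries per group limit the precision of members under about 5 FPKM, where the log2(FPKM + 1) scale shrinks differences.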

Other observations

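The subunits can also be summed by the ligand that they bind. The collagen-binding alpha subunits Itga1, Itga2, Itga10 and Itga11 summed to 29.5 ± 2.61 FPKM in Control, 18.7 ± 1.21 FPKM in PCOS and 29.3 ± 1.54 FPKM in PCOS-MV (SD, n = 4). The RGD-binding alpha subunits Itga5, Itga8, Itgav and Itga2b summed to 69.4 ± 8.07, 44.7 ± 3.77 and 72.9 ± 8.01 FPKM. In both sums the PCOS libraries lay below all others. All 17 alpha subunit genes summed to 181.5 ± 10.3, 143 ± 7.27 and 184 ± 8.70 FPKM, and the 7 beta subunit genes to 207 ± 6.26, 169.9 ± 8.53 and 194 ± 3.14 FPKM. Itga9 was measured at 0.538 ± 0.0899 times the level of Itga6 in Control, 3.15 ± 0.148 times in PCOS and 1.03 ± 0.226 times in PCOS-MV, so that the order of these subunits was exchanged in PCOS. Lamc1 was 7.26 ± 0.167 times Lamc3 in Control, 2.65 ± 0.485 times in PCOS and 7.47 ± 1.18 times in PCOS-MV. These sums and ratios were not tested, and the RGD and collagen groups were chosen with earlier results of these data known.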
